A study of Mus musculus with 5 samples.

Results

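The mRNAs of 9 transcription factors that set the fate and layer identity of cortical neurons (Eomes, Tbr1, Bcl11b, Fezf2, Cux1, Cux2, Pou3f2, Pou3f3 and Myt1l) were followed in an eIF4E RNA immunoprecipitation from mouse neocortex. They were chosen by gene symbol, and each had 1 row among the 49875 gene IDs of the table. Wild-type mouse cortices of embryos at E13.5, in mid-gestation, were dissociated and lysed in a mild detergent, and the cytoplasmic supernatant was either kept as Input or precipitated on magnetic beads. The series holds 2 eIF4E libraries (MBL antibody RN001P), 2 Input libraries and 1 library from a precipitate with rabbit control immunoglobulin G (IgG, Bioss bs0295P). The labels give all 5 libraries the same genotype, tissue and age and name no treatment. The eIF4E and Input libraries are labelled as biological replicates without naming animals or pools, so the p-values speak of library-to-library spread, which may be technical, and the lone IgG library has no replicate.

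eIF4E is the protein that binds the 5′ cap of an mRNA and recruits the machinery that loads the ribosome. In the developing cortex, radial glia divide to give intermediate progenitors and neurons, and deep-layer neurons are born before upper-layer neurons. Eomes is a T-box factor of intermediate progenitors, and the related Tbr1 follows it in newly formed deep-layer and subplate neurons. Fezf2 and Bcl11b are zinc finger proteins of deep-layer neurons that project out of the cortex, with Fezf2 acting upstream and also present in early progenitors. Cux1 and Cux2 are homeodomain proteins of upper-layer neurons and their progenitors. Pou3f2 and Pou3f3 are closely related POU-domain factors, encoded by intronless genes, that act in the production of upper-layer neurons. Myt1l is a zinc finger protein of postmitotic neurons that represses genes of other lineages.

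Values are RSEM abundances, in TPM or FPKM (both per transcript length), so levels can be compared between genes of a library. The factor between libraries is not known. Column totals ran from 708778 to 848550 in the eIF4E and Input libraries and reached 560076 in IgG. The sequencing depth behind each value is unknown, so no counting interval can be given. Among the 12769 genes tested, log2 values correlated with Pearson's r = 0.989 between the eIF4E libraries and 0.993 between the Input libraries; these are correlations over genes, and genes are no replicates. The IgG library stood apart, with r between 0.593 and 0.707 to the others and 2651 of the tested genes listed at 0, against 84 at most elsewhere. Each comparison with IgG rests on that library. The tissue labels give both forebrain and neocortex. Emx1, a factor of the dorsal telencephalon, measured 219.17 and 222.04 in Input, 80.72 and 80.97 in eIF4E and 56.69 in IgG. The mRNA of Eif4e itself measured 197.83 and 204.96 in Input, 1230.61 and 1300.11 in eIF4E and 120.15 in IgG. The 21 markers of ventral telencephalon and interneurons summed to 121.84 and 127.76 in Input, with Nkx2-1, Gsx1 and Lhx8 listed at 0 in both. In bulk RNA, fewer cells of a type and less RNA per cell cannot be told apart.

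The cap that eIF4E binds sits on the first transcribed base, so the annotated start is shown for 4 genes on which the results below turn: Pou3f3, the gene that was higher in eIF4E than in both controls, its paralog Pou3f2, and the deep-layer pair Fezf2 and Bcl11b. Each line gives 30 bases of RefSeq sequence (GRCm38.p6, the assembly of mm10), 5′ to 3′ on the gene's strand. It holds 10 bases before the listed start and 20 from it on, with the first 5 from that start in capitals. The windows are chr1:42695758-42695787 (plus strand) for Pou3f3, chr4:22488347-22488376 (minus) for Pou3f2, chr14:12345846-12345875 (minus) for Fezf2 and chr12:108003395-108003424 (minus) for Bcl11b.
Pou3f3: gagggtaaacATTCGacagtccctgctctg
Pou3f2: gagcgagggcGGGCGggcgggcgggaggca
Fezf2: cccgattcgcAAACCgctcgcactttcccg
Bcl11b: gcagttttatAATTTattttagccttttct
The 4 sequences differ in base composition. G and C made up 58% of the first 50 bases from the listed start in Pou3f3, 72% in Pou3f2, 62% in Fezf2 and 34% in Bcl11b. The median was 66% over 12412 starts of tested genes. RefSeq lists 14 starts for the 9 genes, 5 of them for Myt1l and 2 for Cux2. None of the 14 had C as its first base followed by 4 bases that are each C or T, the form of a terminal oligopyrimidine leader, searched on the transcribed strand at the first base only. Of all 32851 starts in the table, 2.51% had it, and of 76 starts of ribosomal protein genes, which are known for such leaders, 18.4% did. The search thus missed most ribosomal protein starts and the form is rare, so none among 14 cannot show that the members lack such leaders. The starts are annotated and were not measured here. Those of Pou3f3 and Pou3f2 lie at the edge of the RefSeq spans given below. Those of Fezf2 (12345865) and Bcl11b (108003414) lie inside them, short of span ends at 12346803 and 108004145. The listed starts of Eomes, Tbr1, Cux1, Cux2 and Myt1l also lie inside their spans. A listed start is thus not always the 5′ end of the RefSeq span.

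In the cytoplasmic Input the 9 mRNAs spanned a wide range of levels. Fezf2 was the most abundant, at 87.13 and 86.52, and Cux1 followed at 51.59 and 49.14. Bcl11b (18.1 and 19), Tbr1 (16.21 and 16.08) and Pou3f3 (15.47 and 14.34) lay close together, and each stayed above the next in both libraries. Myt1l measured 7.58 and 6.24 in Input. The lowest were Cux2 (5.42 and 4.66), Eomes (3.93 and 4.67) and Pou3f2 (3.73 and 3.54), with Cux2 and Eomes overlapping. Deep-layer Fezf2 thus stood above 86.8% of the tested genes in Input, whereas Pou3f2 stood above 33.2%.

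**Figure D1:**
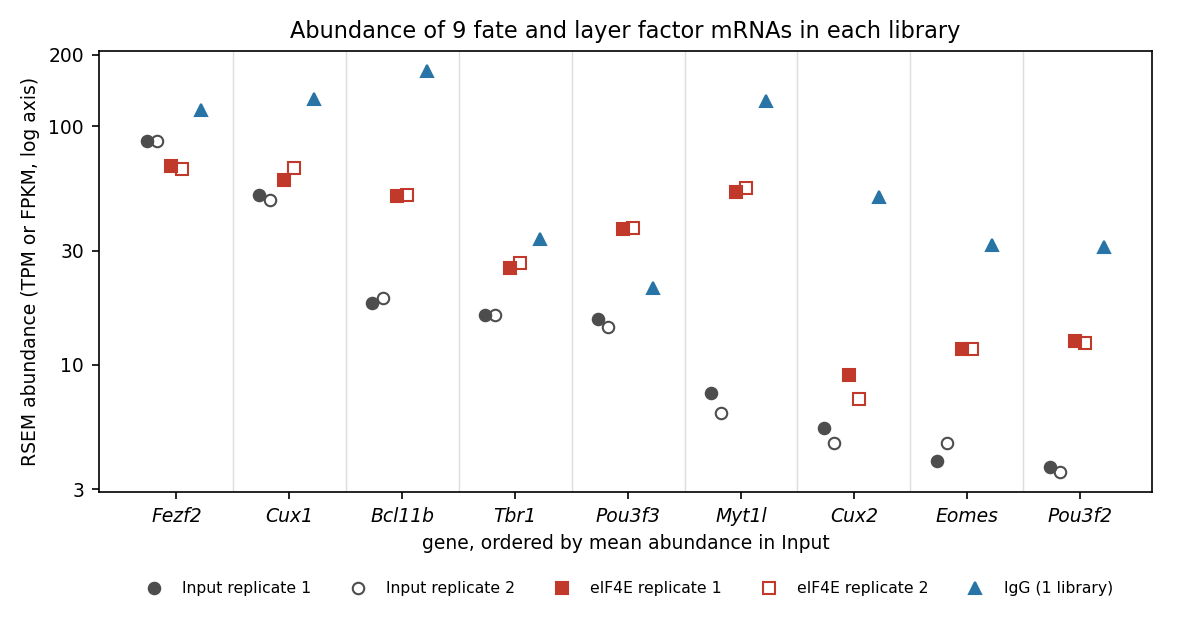
RSEM abundance (TPM or FPKM, log axis) of the 9 genes, ordered by their mean in Input, with 1 point per library. Circles are Input, squares eIF4E and the triangle the lone IgG library; replicate 2 is drawn open. Fezf2 lies lower in eIF4E than in Input and the other 8 genes lie higher, and Pou3f3 is the gene whose IgG value (21.02) lies below its eIF4E values.

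Setting eIF4E beside Input addresses which mRNAs of the cytoplasm took a larger share of the RNA recovered with the cap-binding protein. Of the 9 factor mRNAs, 8 were higher in eIF4E and 1, Fezf2, was lower (limma, adjusted p under 0.05 over all 12769 genes). Among all genes tested, 43.3% were called higher and 30.6% lower. Differences of at least 2-fold were called upward for 5 of the 9, against 23.3% of all genes, and downward for none, against 7.26%. The median log2 difference of the 9 was 1.25, beside 0.16 for all genes. That overall median moved to −0.11 under median-of-ratios and quantile scaling and to 0.36 with equal totals, and the share of calls that were upward moved from 58.6% to 45.7%, 45.5% and 70.3% in turn. Differences are therefore also given relative to the median of all genes.

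The T-box pair rose. Eomes measured 11.58 and 11.64 in eIF4E against 3.93 and 4.67 in Input. The groups did not overlap, and the difference was 2.39-fold on the scale of value + 1 (log2 1.25, SE 0.10, limma adjusted p = 4.5e-04). Tbr1, the factor of the neurons that follow, measured 25.36 and 26.59 in eIF4E against 16.21 and 16.08 in Input. Its rise was smaller, at 1.57-fold (log2 0.65, SE 0.06, limma adjusted p = 8.2e-04). Relative to the median of all genes these rises were log2 1.10 for Eomes and 0.50 for Tbr1.

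The deep-layer zinc finger mRNAs went opposite ways. Bcl11b measured 51.06 and 51.36 in eIF4E against 18.1 and 19 in Input, a 2.67-fold rise (log2 1.42, SE 0.06, limma adjusted p = 9.0e-05). Fezf2 measured 68.22 and 66.53 in eIF4E, below both of its Input values of 87.13 and 86.52. It fell to 0.778 of Input (log2 −0.36, SE 0.05, limma adjusted p = 0.0021), and lay 0.52 below the median of all genes on the log2 scale. With libraries scaled to the same total, the Fezf2 difference was log2 −0.12 and no longer passed (adjusted p = 0.0822). At the other settings tried it stayed lower and past the threshold.

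Among the upper-layer factors, the POU-domain mRNAs both rose by more than 2-fold and the Cux mRNAs by less. Pou3f2 measured 12.54 and 12.37 in eIF4E against 3.73 and 3.54 in Input, a 2.90-fold rise (log2 1.54, SE 0.08, limma adjusted p = 1.4e-04). Pou3f3 measured 37.26 and 37.36 in eIF4E against 15.47 and 14.34 in Input, a 2.41-fold rise (log2 1.27, SE 0.07, limma adjusted p = 1.6e-04). The 95% intervals of the log2 differences were 1.33 to 1.74 for Pou3f2 and 1.09 to 1.45 for Pou3f3, above those of Cux1 (0.12 to 0.52) and Cux2 (0.23 to 0.95), though the difference between the families was not tested.

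Both Cux differences were small and depended on the setting. Cux1 measured 59.49 and 67.03 in eIF4E against 51.59 and 49.14 in Input, 1.25-fold (log2 0.32, SE 0.08, limma adjusted p = 0.0162). The Cux1 locus also encodes a Golgi protein, CASP, from alternative transcripts, and the gene-level value does not separate them. Cux2 measured 9.04 and 7.2 in eIF4E against 5.42 and 4.66 in Input, 1.51-fold (log2 0.59, SE 0.14, limma adjusted p = 0.0146). Neither gene's groups overlapped. After median-of-ratios scaling Cux1 was level with Input (log2 0.0019, adjusted p = 0.985) and Cux2 did not pass (log2 0.31, adjusted p = 0.0799). Quantile normalization also ended the call of Cux2 (log2 0.058, adjusted p = 0.745), and with no filter on low values neither passed (adjusted p = 0.0542 for Cux1 and 0.0556 for Cux2). Leaving out Input replicate 2 ended both calls (adjusted p = 0.0961 for Cux1 and 0.0753 for Cux2), and leaving out Input replicate 1 ended that of Cux1 (adjusted p = 0.0601).

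Myt1l, the neuronal repressor, had the largest rise of the 9. It measured 52.98 and 54.93 in eIF4E against 7.58 and 6.24 in Input, 6.97-fold (log2 2.80, SE 0.10, limma adjusted p = 7.7e-05). A log2 difference of that size lay above 98.4% of all genes tested. From the sixth place in Input it moved to the third in eIF4E, behind Fezf2 and Cux1, which overlapped there. Eomes and Pou3f2 moved above Cux2, which was the lowest of the 9 in eIF4E.

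**Figure D2:**
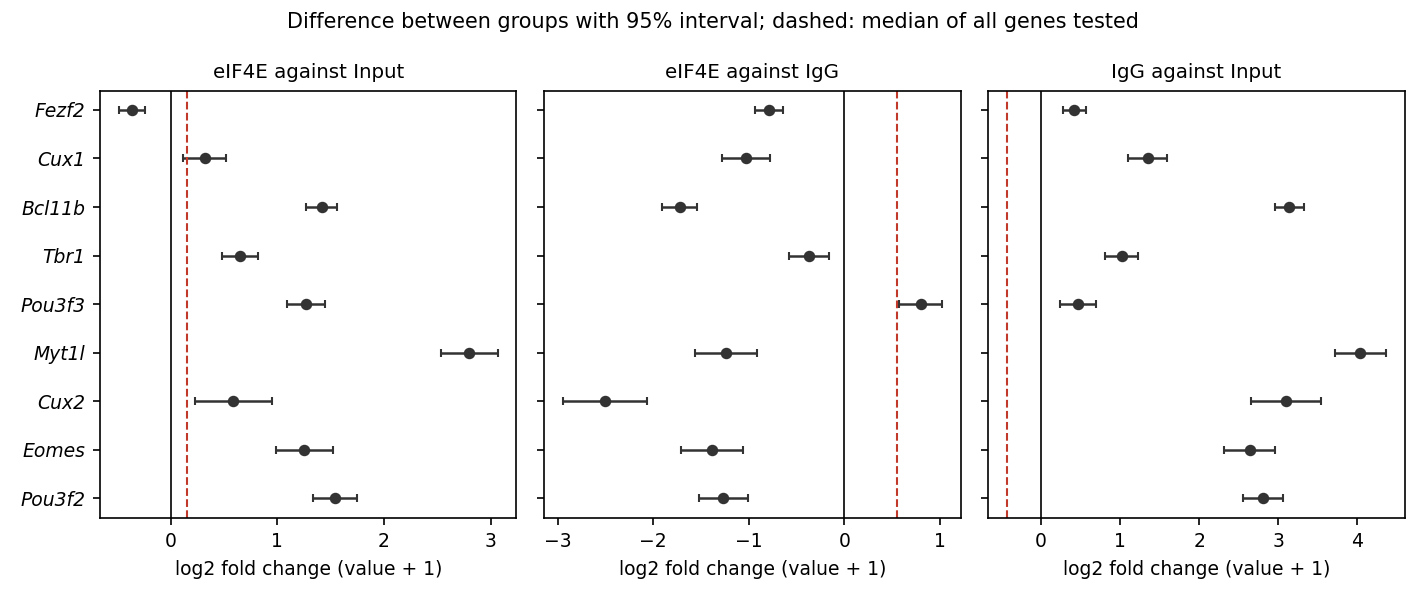
Log2 fold change of each gene, on the scale of value + 1, in the 3 comparisons, with 95% intervals from limma; the dashed line is the median of all 12769 genes tested. Against Input 8 genes lie above 0 and Fezf2 below; against IgG, Pou3f3 (log2 0.80) lies above 0 and the other 8 below.

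The comparison with the control precipitate asks whether these mRNAs held a larger share of the eIF4E libraries than of RNA that came down without the specific antibody. It shares the eIF4E libraries with the comparison above. Of the 9 mRNAs 1 was higher in eIF4E than in IgG and 8 were lower, whereas 53.1% of all genes were called higher and 30.6% lower. The median log2 difference of the 9 was −1.23, beside 0.55 for all genes. Differences of at least 2-fold were called downward for 6 of the 9 and 19.0% of all genes. Upward differences of at least 2-fold were called for none of the 9 and 39.3% of all genes. After quantile normalization 48.8% of all calls were upward, against 63.4% with the values as deposited, and the median of all genes was −0.04. Abundances are relative within a library, and how much RNA each precipitate yielded cannot be read from them.

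Pou3f3 was the mRNA higher in eIF4E than in IgG. Its eIF4E values of 37.26 and 37.36 stood above an IgG value of 21.02, a difference of 1.74-fold (log2 0.80, SE 0.08, limma adjusted p = 7.3e-04). Relative to the median of all genes in this comparison the difference was log2 0.25, and 55.5% of genes had a lower one. Its paralog Pou3f2 went the other way, with 31.31 in IgG and 12.54 and 12.37 in eIF4E, 0.416 of IgG (log2 −1.26, SE 0.10, adjusted p = 2.5e-04).

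Cux2 showed the largest excess in IgG. It measured 50.44 there against 9.04 and 7.2 in eIF4E, which put eIF4E at 0.176 of IgG (log2 −2.50, SE 0.17, limma adjusted p = 1.6e-04). Bcl11b followed, at 171.37 in IgG, the highest value of any of the 9 in any library, and eIF4E stood at 0.303 of it (log2 −1.72, SE 0.07). Eomes, at 31.9 in IgG, and Myt1l, at 128.15, had eIF4E values at 0.383 and 0.425 of IgG. Cux1 (129.89 in IgG) and Fezf2 (116.96) stood at 0.490 and 0.580. Tbr1 was the nearest to parity among the 8, at 33.84 in IgG and 0.774 of it in eIF4E (log2 −0.37, SE 0.08, limma adjusted p = 0.00886). All 9 calls against IgG kept their direction and stayed past the threshold in the 13 alternative settings of this comparison.

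**Figure D3:**
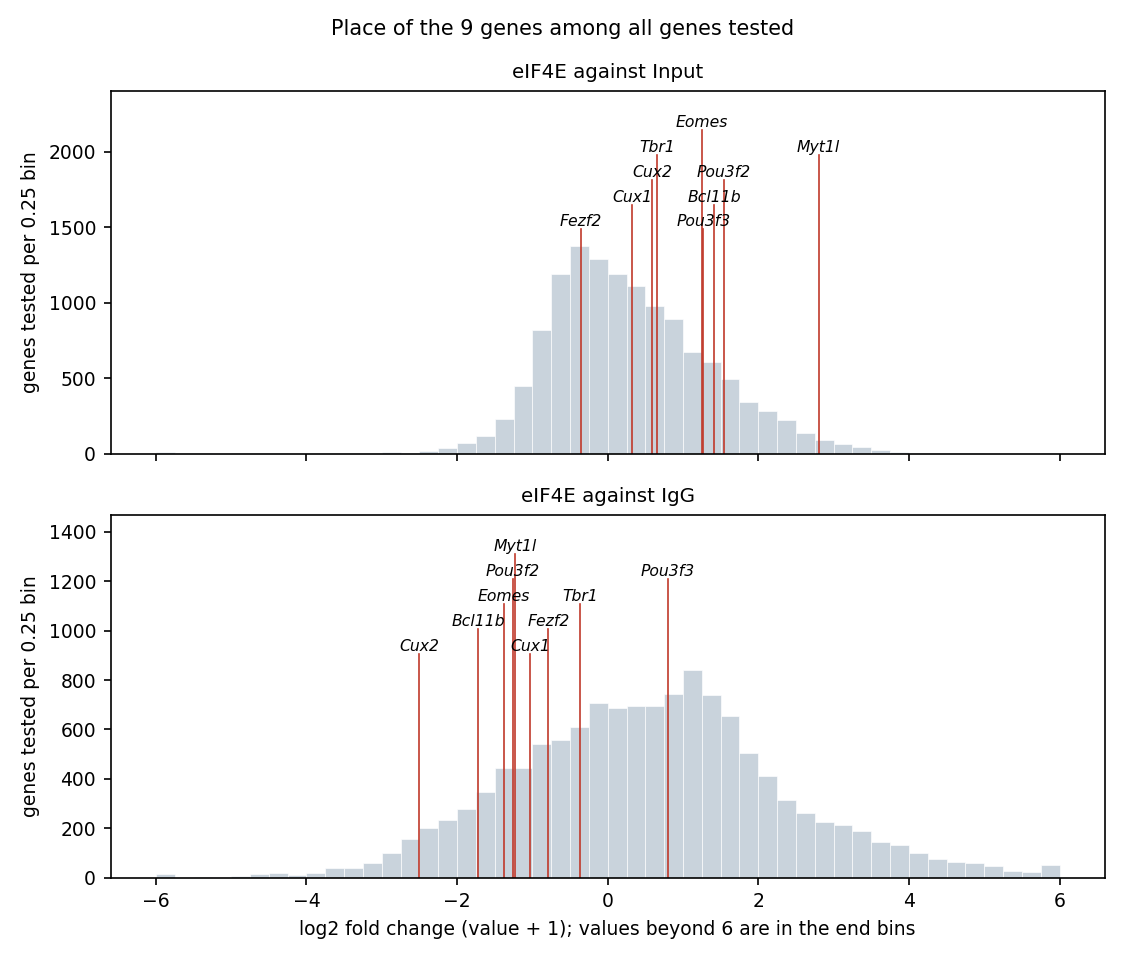
Number of tested genes per bin of 0.25 in log2 fold change (value + 1), for eIF4E against Input (top) and eIF4E against IgG (bottom), with red lines at the 9 genes. Against Input the lines run from Fezf2 (log2 −0.36) to Myt1l (2.80); against IgG they run from Cux2 (−2.50) to Pou3f3 (0.80), with 8 of 9 on the left of 0.

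Set against Input, the IgG library held more of all 9 mRNAs (9 called higher and none lower, against 37.8% and 50.3% of all genes; limma, IgG assumed to vary like the other groups). At 2-fold or more, 7 were called higher and none lower, against 28.5% and 38.6% of all genes. The median log2 difference was 2.64, beside −0.43 for all genes. Over all genes 42.9% of calls were upward, which became 51.8% with equal totals (median 0.03) and 56.0% among genes above 0 in all 5 libraries (median 0.26). The spread among the 9 was wide. Myt1l was 16.4-fold higher in IgG than in Input, Bcl11b 8.82-fold, Cux2 8.53-fold, Pou3f2 6.97-fold and Eomes 6.22-fold. Cux1 and Tbr1 were 2.55-fold and 2.03-fold higher. Pou3f3 and Fezf2 differed least, at 1.39-fold and 1.34-fold (limma adjusted p = 0.00444 and 0.00155). After median-of-ratios scaling those calls were lost (adjusted p = 0.0745 for Pou3f3 and 0.07 for Fezf2), and quantile normalization also ended that of Pou3f3 (0.291). Reading both precipitates beside Input for each gene, Bcl11b stood at 2.76 times its Input mean in eIF4E and 9.24 times in IgG, and Pou3f3 at 2.50 times and 1.41 times, all without an added 1.

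The ratio of 2 values within a library does not change when the whole library is rescaled, and 4 pairs were compared by such ratios. The differences and tests use log2(value + 1), on which this holds only in part for low values. With 2 libraries against 2, the smallest p the exact two-sided permutation test allows is 0.333, so none of these 4 can pass. Bcl11b over Fezf2 changed the most. Without an added 1, Bcl11b stood at 0.208 and 0.22 of Fezf2 in Input, at 0.748 and 0.772 in eIF4E and at 1.47 times Fezf2 in IgG. On the log2 scale of value + 1 the ratio was 1.78 higher in eIF4E than in Input (exact permutation p = 0.333, the smallest possible). The shift was far larger than the replicate spread, whose SD was 0.05 in Input and 0.03 in eIF4E.

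The T-box pair moved less. Eomes stood at 0.242 and 0.29 of Tbr1 in Input, 0.457 and 0.438 in eIF4E and 0.943 in IgG, and the log2 ratio rose by 0.60 from Input to eIF4E (exact permutation p = 0.333). Pou3f2 stood at 0.241 and 0.247 of Pou3f3 in Input, 0.337 and 0.331 in eIF4E and 1.49 times Pou3f3 in IgG. The log2 ratio of the POU pair differed by 0.27 between eIF4E and Input (exact permutation p = 0.333), a difference that became 0.43 with a pseudocount of 0.1 and turned to −0.073 with one of 5. Its sign against Input therefore depended on the added constant. Cux1 was 9.52 and 10.5 times Cux2 in Input and 6.58 and 9.31 times in eIF4E, and 2.58 times in IgG. On the log2 scale of value + 1 the eIF4E and Input ratios of the Cux pair overlapped (exact permutation p = 0.667).

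**Figure D4:**
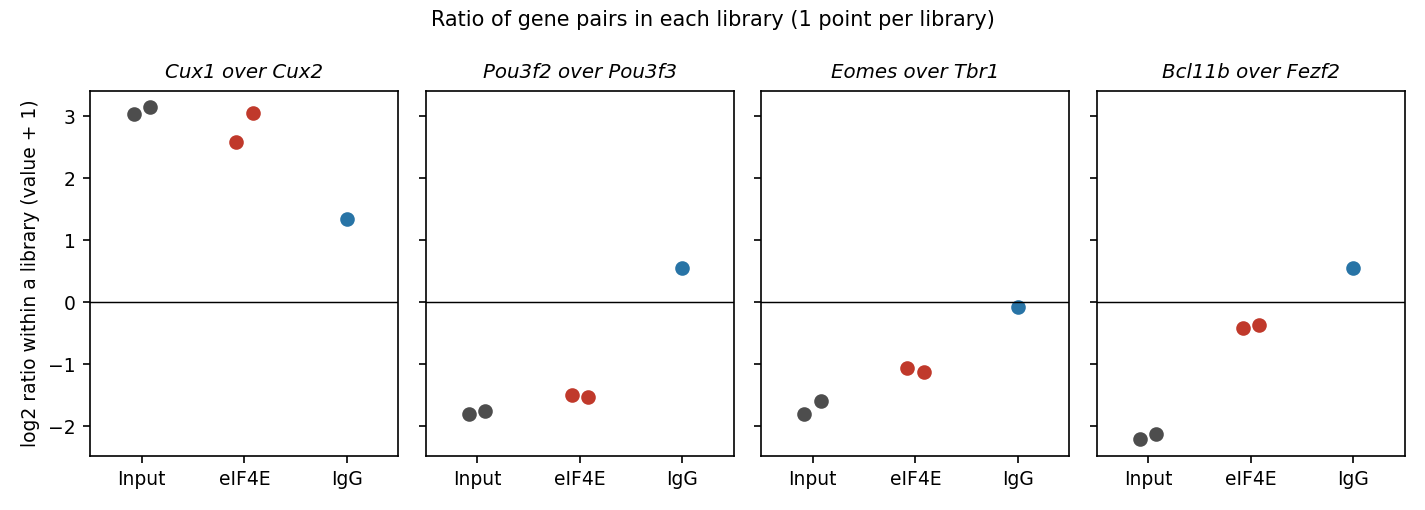
Log2 ratio of 4 gene pairs (value + 1) in each library, with 1 point per library. Bcl11b over Fezf2 rises from Input (mean −2.17) to eIF4E (−0.39) and IgG (0.55), whereas the eIF4E and Input points overlap for Cux1 over Cux2.

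Relatives of the 9 factors were read beside them. Of 21 listed paralogs 10 were abundant enough to be tested, of which 8 were higher in eIF4E than in Input and none lower (median log2 0.99). Against IgG 3 were higher and 5 lower. Of all genes tested, 43.3% were called higher and 30.6% lower against Input, and 53.1% and 30.6% against IgG. The 2 with the largest rises over Input were Satb1, a chromatin-binding homeodomain protein (3.17 and 3.82 in Input, 24.8 and 25.12 in eIF4E, 5.79-fold), and St18, of the same zinc finger family as Myt1l (7.81 and 7.89 in Input, 41.61 and 52.89 in eIF4E, 5.41-fold). Satb1 in IgG was 29.77, which did not differ past the threshold from eIF4E (limma adjusted p = 0.117). St18 in IgG was 160.94, above both eIF4E values.

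The closest relatives of 4 members were added after their values were seen. Myt1, the third member of the Myt1l family, had means of 8.91 in Input and 19.75 in eIF4E and 80.76 in IgG, the same order as Myt1l and St18. Among POU class III genes, Pou3f4 measured 1.29 (mean) in Input, 2.47 in eIF4E and 13.3 in IgG. Pou3f1 measured 2.2 and 2.1 (means) in Input and eIF4E and was listed at 0 in IgG. Bcl11a, the paralog of Bcl11b, was nearly level across the groups, with means of 85.62 in Input and 98.72 in eIF4E and a value of 82.67 in IgG. The direction of each Bcl11a difference turned under at least 1 scaling, whereas Bcl11b kept its direction under all of them.

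A list of 41 other factors of projection neuron layers and subtypes was read from the same fit. Of these, 32 were higher in eIF4E than in Input and 2 lower, with a median log2 difference of 0.87 beside 0.16 for all genes. Against IgG 17 were higher and 20 lower (median −0.29). The shares of all genes were 43.3% higher and 30.6% lower against Input, and 53.1% and 30.6% against IgG. Foxp2, a forkhead factor of deep-layer neurons, measured 1.03 and 1.82 in Input, 14.03 and 14.92 in eIF4E and 39.29 in IgG, 6.47-fold higher in eIF4E than in Input. Sox11, which promotes neuronal gene expression in newborn neurons, measured 18.46 and 18.11 in Input, 115.12 and 117.1 in eIF4E and 243.26 in IgG. The 2 that were lower in eIF4E than in Input were Otx1, a homeodomain factor of deep-layer neurons and progenitors (84.2 and 87.36 against 64.57 and 67.02, 0.770 of Input), and Crym (5.16 and 6.47 against 3.02 and 2.4). The Otx1 call, like that of Fezf2, was lost with equal totals (adjusted p = 0.077).

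Genes of intermediate progenitors, in which Eomes acts, were more divided. Of 25 tested, 14 were higher in eIF4E than in Input and 5 lower (median log2 0.31). Of all genes, 43.3% were higher and 30.6% lower against Input, and 53.1% and 30.6% against IgG. The RNA-binding protein gene Elavl2 was 6.53-fold higher and Tcf12, a partner of proneural factors, 4.12-fold. Mfap4 was at 0.489 of Input and Rnd2, a small GTPase of migrating neurons, at 0.648. Against IgG 13 were higher and 8 lower (median 0.29), and Elavl2 measured 132.48 in IgG, above its eIF4E values of 82.35 and 72.98. Corepressors with which these factors are known to work or which share their complexes had 18 of 34 higher and 8 lower (median log2 0.31). Ncor1 was 8.57-fold and Skil 6.42-fold higher, whereas Tle5 and Mbd3 were at 0.459 and 0.512 of Input. Against IgG 12 corepressor genes were higher and 12 lower (median −0.03). Ncor1 measured 119.08 and 125.14 in eIF4E and 170.45 in IgG, and Skil 17.92 and 18.8 in eIF4E and 21.46 in IgG, differences that did not pass (limma adjusted p = 0.0637 and 0.235). With equal totals both passed as lower in eIF4E (adjusted p = 0.0102 and 0.0193). Both medians against Input lay nearer to that of all genes (0.16) than to that of the 9 factors (1.25). No list was tested as a set.

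Markers of other cells moved as well. In the order Input, eIF4E and IgG, the 11 erythroid markers summed to 17171 and 18703, to 6449 and 4846, and to 2541. The 14 endothelial and mural markers summed to 333.66 and 342.35, to 147.68 and 140.56, and to 35.05. The 17 radial glia markers summed to 2447 and 2535, to 2797 and 2448, and to 1623. Thus the sums of blood and vessel markers were lower in both precipitates than in Input. Of the 9 factor mRNAs, 8 were higher in eIF4E and all 9 in IgG. Single markers were divided. Of 13 vessel markers tested, 2 were higher and 7 lower in eIF4E than in Input, and 2 higher and 10 lower in IgG. Of 10 erythroid markers tested, all were lower in eIF4E than in Input, and 2 were higher and 8 lower in IgG. The 7 dorsal telencephalon markers counted here, none of them among the 9 factors, summed to 851.54 and 849.6, to 1164.49 and 1203.88, and to 968.32. Of these 7, 5 were higher and 1 lower in eIF4E than in Input (median log2 0.78), and 3 were higher and 2 lower in IgG than in Input (median 0.10). Of all genes, 43.3% were higher and 30.6% lower in eIF4E than in Input, and 37.8% and 50.3% in IgG than in Input. Cajal-Retzius cell markers (10) summed to 41.28 and 40.6, to 59.24 and 56.86, and to 112.47, while the 11 markers of meninges and mesenchyme summed to 171.31 and 159.83, to 105.44 and 101.75, and to 383.92. Microglia markers (11) summed to 52.76 and 61.38, to 28.16 and 20.88, and to 21.97. The ventral markers summed to 122.75 and 114.97 in eIF4E and to 211.16 in IgG. Some sums and counts differed in direction between IgG and Input: of 15 ventral markers tested 4 were higher and 8 lower in IgG (median log2 −0.61), and of 7 of meninges 3 were higher and 3 lower (median −0.04). Of 9 tested Cajal-Retzius markers, 5 were higher and 4 lower in IgG than in Input (median 2.00). Of these lists the IgG library had the most markers at 0, with 9 of 11 for microglia, 7 of 14 for vessels, 5 of 11 for meninges, 4 of 10 for Cajal-Retzius cells and 10 of 21 for ventral cells. The part of these shifts in the members' differences was not tested.

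For each member the tested genes with the most similar profile over the 5 libraries were found by the Euclidean distance of centred log2(value + 1), among 6090 genes above the median level. The closest match of any member was Ctps, CTP synthase, to Tbr1, at a distance of 0.03, with 62.26 and 61.24 in Input, 96.12 and 98.55 in eIF4E and 128.39 in IgG. Next were Zbtb9 to Fezf2 (distance 0.03) and Gnb5 to Fezf2 (0.05). Egln1 lay nearest Eomes (0.06), Cyb5b nearest Pou3f3 (0.08), Atg16l1 nearest Cux1 (0.08) and Arl15 nearest Bcl11b (0.09). Ccnd2, a G1 cyclin of cortical progenitors, lay nearest Pou3f2 (0.09), at a far higher level (799.89 and 789.89 in Input). Virma lay nearest Cux2 (0.18) and Zfp280d nearest Myt1l (0.20), so these 2 had the most distant nearest genes. The second nearest were Vamp3 to Tbr1 (0.07), Top2a to Pou3f2 (0.09), Rfwd3 to Pou3f3 (0.10), Casp2 to Cux1 (0.11), Sptan1 to Bcl11b and Ccdc50 to Eomes (0.16 each), Ntrk3 to Cux2 (0.21) and Kif5c to Myt1l (0.26). Between members, Eomes and Pou3f2 were the most alike (0.34) and Bcl11b and Pou3f2 followed (0.39).

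The loci of the 9 genes differ greatly in length (RefSeq, GRCm38.p6). Pou3f3 spans 4.443 kb on chromosome 1 (42695768 to 42700210), Pou3f2 6.272 kb on chromosome 4 (22482095 to 22488366), Fezf2 7.812 kb on chromosome 14 (12338992 to 12346803), Eomes 7.947 kb on chromosome 9 (118478186 to 118486132) and Tbr1 11.252 kb on chromosome 2 (61802863 to 61814114). Bcl11b spans 93.743 kb on chromosome 12 (107910403 to 108004145), Cux2 192.454 kb (121857962 to 122050415) and Cux1 319.456 kb (136248135 to 136567590) on chromosome 5, and Myt1l 395.627 kb on chromosome 12 (29527590 to 29923216). Locus length moved with the differences between groups. Over 12395 tested genes with a RefSeq span, the median log2 difference of IgG against Input was −1.35 among the shortest loci (up to 8.716 kb) and 1.05 among the longest (from 53.27 kb), and that of eIF4E against Input was −0.35 and 0.74. Spearman's rho across those genes was 0.39 for IgG against Input, 0.40 for eIF4E against Input and −0.26 for eIF4E against IgG, as a description of genes that share these 5 libraries. Over the 9 members alone rho was 0.62 for IgG against Input, −0.38 for eIF4E against IgG and 0 for eIF4E against Input. Of the 4 members with loci under 8.716 kb, Eomes, Pou3f2 and Pou3f3 rose over Input in eIF4E and Fezf2 fell. The part of locus length in the members' differences was not tested.

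Annotated genes overlap 5 of the 9 loci, and Smart-seq2 libraries do not mark strand. Of the overlapping genes with a row in the table, Gm20208, at the start of Myt1l, had the highest values, at 2.69 and 2.93 in Input, 1.43 and 1.41 in eIF4E and 0 in IgG. The others with a row were at 0.02 or 0 in each library. All annotated genes overlapping Eomes, Cux2 and Pou3f3, and some at Cux1 and Myt1l, had no row, so their values are unknown. The gene overlapping Pou3f3 runs from 42684538 to 42744791 and covers that whole locus.

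**Figure D5:**
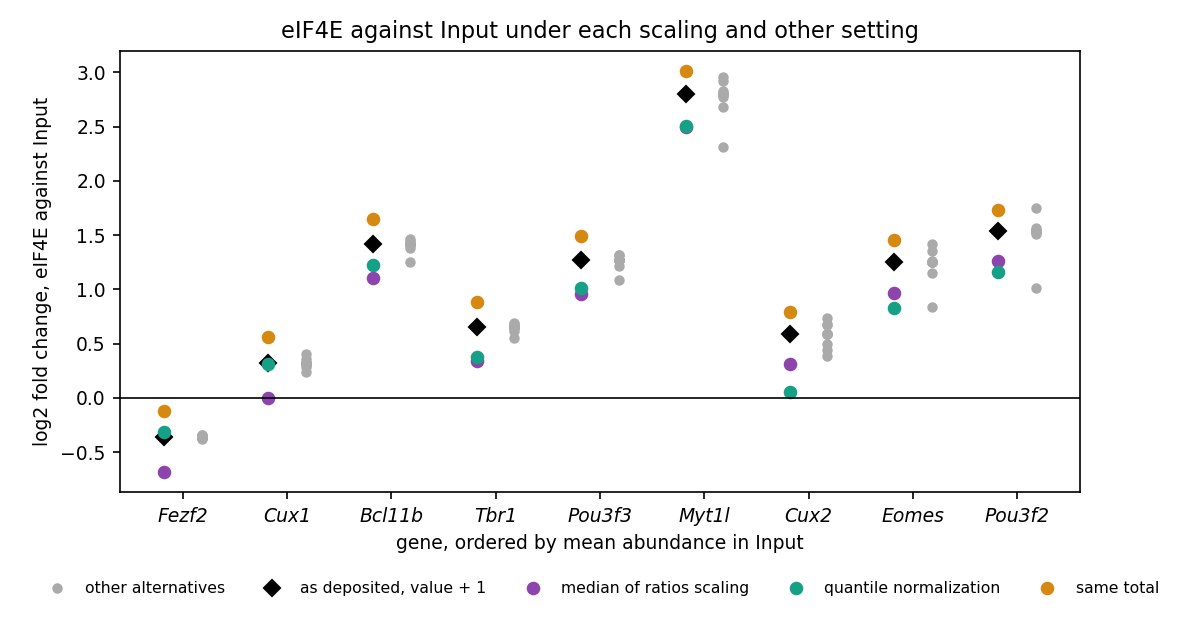
Log2 fold change of eIF4E against Input for each gene under the values as deposited (black), 3 other scalings (coloured) and the remaining alternatives (grey). Fezf2 stays below 0 and 8 genes at or above it, with Cux1 reaching 0.0019 under median-of-ratios scaling.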

How the data were processed

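Per the labels' protocols, cytoplasmic supernatant and precipitated RNA were made into Smart-seq2 libraries. Per the submitters' processing notes the authors used STAR 2.7.9a, RSEM 1.3.3 and mm10. The deposited values, 1 column per library, are linear, with decimals and none below 0. They were taken as RSEM abundances; which of TPM or FPKM the authors deposited, and their annotation, options and filters, no source used here states. Of 50161 rows, 286 exact repeats were dropped. Smart-seq2 primes on poly(A) tails and has no molecular identifiers.

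Tests covered the 12769 genes that reached a value of 1 in 2 or more of the 5 libraries and used log2(value + 1), a scale that understates changes of low genes, with limma 3.58.1 in R 4.3.3 (3 group means, trended eBayes, two-sided, Benjamini-Hochberg over all genes, threshold 0.05). Residual degrees of freedom were 2, with a median of 2.57 from the prior. The lone IgG sample takes its spread from the eIF4E and Input pairs. Pair ratios used an exact permutation test.

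The members and gene lists were chosen with earlier results of these data known. Named genes are all members, from each other list the 2 highest and 2 lowest log2 differences of eIF4E against Input past the threshold, the 2 nearest profiles of each member, and Emx1 and Eif4e as checks; Pou3f1, Pou3f4, Myt1 and Bcl11a, relatives of members, and the overlapping gene Gm20208 fall outside this rule and were chosen after their values were seen; 1 further check is not reported here. Sequences, starts and spans came from RefSeq tables of GRCm38.p6, matched by symbol (9 of 9 members). Alternatives covered scaling, pseudocount, filters, the libraries fitted, the variance prior, each replicate left out and a replicate block.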

Additional observations from a re-analysis of the deposited data

How the results depend on the processing

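Of 360 alternative values for the 9 members, 348 kept direction and side of the threshold, and the cause of the 12 losses was not tested. In eIF4E against Input, equal totals left 0 members lower (Fezf2 log2 −0.12). Cux1 did not pass under median-of-ratios scaling (log2 0.0019) or with no filter (0.32, adjusted p = 0.0542), and ranged from 0.24 to 0.41 with 1 replicate left out. Cux2 did not pass under median-of-ratios (0.31) or quantile scaling (0.058, adjusted p = 0.745) or with no filter (0.59, adjusted p = 0.0556), and ranged from 0.44 to 0.74 with 1 replicate left out. In IgG against Input, median-of-ratios scaling took Fezf2 to 0.15 and Pou3f3 to 0.21, and quantile normalization took Pou3f3 to 0.11. With genes above 0 in all 5 libraries, 4389 of all genes were higher in eIF4E than in IgG (6785 with the main filter) and 4072 lower in IgG than in Input (6428), while the opposite counts went from 3912 to 4248 and from 4823 to 5183. This filter replaces the main one and kept 10679 genes. It leaves out the 2651 genes at 0 in IgG but also lets in genes that the main filter left out. The upward share of calls against IgG went from 63.4% to 50.8%. Against IgG, quantile normalization moved the upward share of all calls from 63.4% to 48.8%. The log2 ratio difference of Pou3f2 over Pou3f3 went from 0.27 to 0.43 and −0.073 with pseudocounts of 0.1 and 5, that of Eomes over Tbr1 from 0.60 to 0.29 and that of Bcl11b over Fezf2 from 1.78 to 1.60, both with 5.

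Among other named genes the following turned. Pou3f1 against Input was log2 0.11 with equal totals and ranged from −0.21 to 0.11 with 1 replicate left out. Bcl11a was −0.12 against Input under median-of-ratios scaling; against IgG it was −0.016 under quantile normalization and −0.093 with equal totals, and IgG against Input was 0.26 and 0.53 under the same settings. Against IgG, Tle5 was −0.43 under quantile normalization and −0.21 with equal totals, and Mbd3 was −0.12 with equal totals. Counts of genes called lower than Input moved from 2 to 5 (median of ratios) and 1 (equal totals, or genes above 0 in all 5 libraries) for the other layer factors, from 8 to 13 and 4 (median of ratios, equal totals) for corepressors and from 0 to 1 (quantile) for paralogs. Against IgG, higher layer factors moved from 17 to 10 and 11 (quantile, equal totals), higher paralogs from 3 to 0 and 5 (quantile, no filter) and lower corepressors from 12 to 19 (equal totals).

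Replicate numbers were shared by eIF4E and Input, and the labels do not say whether same-numbered libraries came from the same lysate. Deviations of same-numbered libraries hardly correlated (r = 0.024 across genes), which cannot tell whether they were paired. With the number as a replicate block, 8 members were higher and 1 lower, and 5360 of all genes were higher and 3754 lower. Depth is unknown, which limits what can be said of the low values of Cux2, Eomes and Pou3f2.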
